A study of Homo sapiens with 4 samples.

Results

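The genes described here encode the machinery that copies DNA and the enzymes that supply its nucleotides. There are 45 of them, chosen by name, and all 45 were measured among the 19775 genes of the arrays. A gene was represented by the probeset (a set of short array probes for 1 transcript) with the highest mean over the 4 arrays, and its other probesets served as a check. Probesets whose names end in _x_at, which can bind several transcripts, were passed over except for ORC6, which had no other. All 45 genes reached a log2 signal of 6 on at least 1 array.

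Each of 4 expression arrays measured messenger RNA of HuH7 cells, an established line from a human liver cancer (hepatocellular carcinoma). The parental cells, called F0, had 2 arrays, F0 (1) and F0 (2). Tumors of these cells in NOD/SCID mice, which lack mature T and B cells but keep myeloid cells of their own, were treated by injection with JNJ-28841072, an inhibitor of VEGF receptors and aurora kinases. Resistant tumors were passed on to new mice 6 times to give F6 and 12 times to give F12, with 1 array each. The phenotype label of F6 and F12 instead gives sorafenib, another kinase inhibitor, as the drug resisted, and the 2 statements were not reconciled here. RNA is described as taken from tissue specimens for every sample. No passaged but untreated tumors are among the samples, so treatment and passage cannot be told apart.

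DNA replication begins when the origin recognition complex (ORC), CDC6 and CDT1 load the ring of MCM proteins onto DNA, a step called licensing that geminin (GMNN) blocks by binding CDT1. In S phase CDC45 and the GINS complex join the ring to form the active helicase, and polymerases alpha, delta and epsilon copy the strands with the sliding clamp PCNA. Ribonucleotide reductase, thymidylate synthase and thymidine kinase make the building blocks. Many of these genes are transcribed in late G1 and S phase under E2F transcription factors, so in a tumor sample their transcripts follow how many cells are cycling. In bulk RNA, fewer cycling cells and less RNA in each cannot be told apart.

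Signals are given on the log2 scale, where arrays that differ by 1 differ 2-fold. A signal of 6 served as the minimum for a gene to count as measured well, and lower values are weak. The parental pair was far apart, with an SD of 1.42 per array over all genes. On a scale across all genes from F0 (1) at 0 to F0 (2) at 1, F6 lay at 0.411 and F12 at 0.963, so F12 is most like F0 (2). The median over all genes of F12 minus F0 (1) was -0.54 and of F12 minus F0 (2) was 0.03, while F6 gave -0.20 and 0.33. Of 7 liver markers 7, 6, 7 and 6 reached 6 on F0 (1), F0 (2), F6 and F12. The one under 6 was APOA1, at 5.20 on F0 (2) and 5.28 on F12. Alpha-fetoprotein (AFP) read between 8.88 on F0 (1) and 13.73 on F0 (2). ALB, APOB and GPC3 were also lower on F0 (1) than on F0 (2), while TTR, SERPINA1 and APOA1 were higher. Of 5 endothelial markers 1 reached 6 on each array, and of 6 fibroblast and mural markers 1 did on F0 (1) and 0 on the others. Of 5 leukocyte markers 3, 2, 2 and 1 reached 6 on F0 (1), F0 (2), F6 and F12. The log2 of their summed signal was 9.18, 12.03, 11.12 and 9.43, mostly from lysozyme (LYZ), so it was lower on F12 than on F0 (2). The part of host or stromal RNA in the results below was not tested.

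The replication genes themselves were spread widely over the parental pair. F0 (2) exceeded F0 (1) by 2-fold or more for 18 of the 45 genes (40%), against 25.0% of all genes and 39.4% of those that reached 6 on 1 array. It was lower by 2-fold or more for 14 (31.1%), against 34.1% and 35.1%. Both shares were thus near those of genes that reached 6. The first set held GMNN, RFC1, RFC3, POLE2, RRM1 and PRIM1, and the second CDT1, TK1, POLD1, POLD2, MCM5 and MCM7. Genes of 1 complex were in both sets, as with the clamp loader, where RFC1 read 4.64 and 9.23 on F0 (1) and F0 (2) and RFC2 read 9.88 and 8.24. The remaining 13 genes, RRM2 among them, were less than 2-fold apart. The plot of signals by array shows this spread for each gene.

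**Figure D1:**
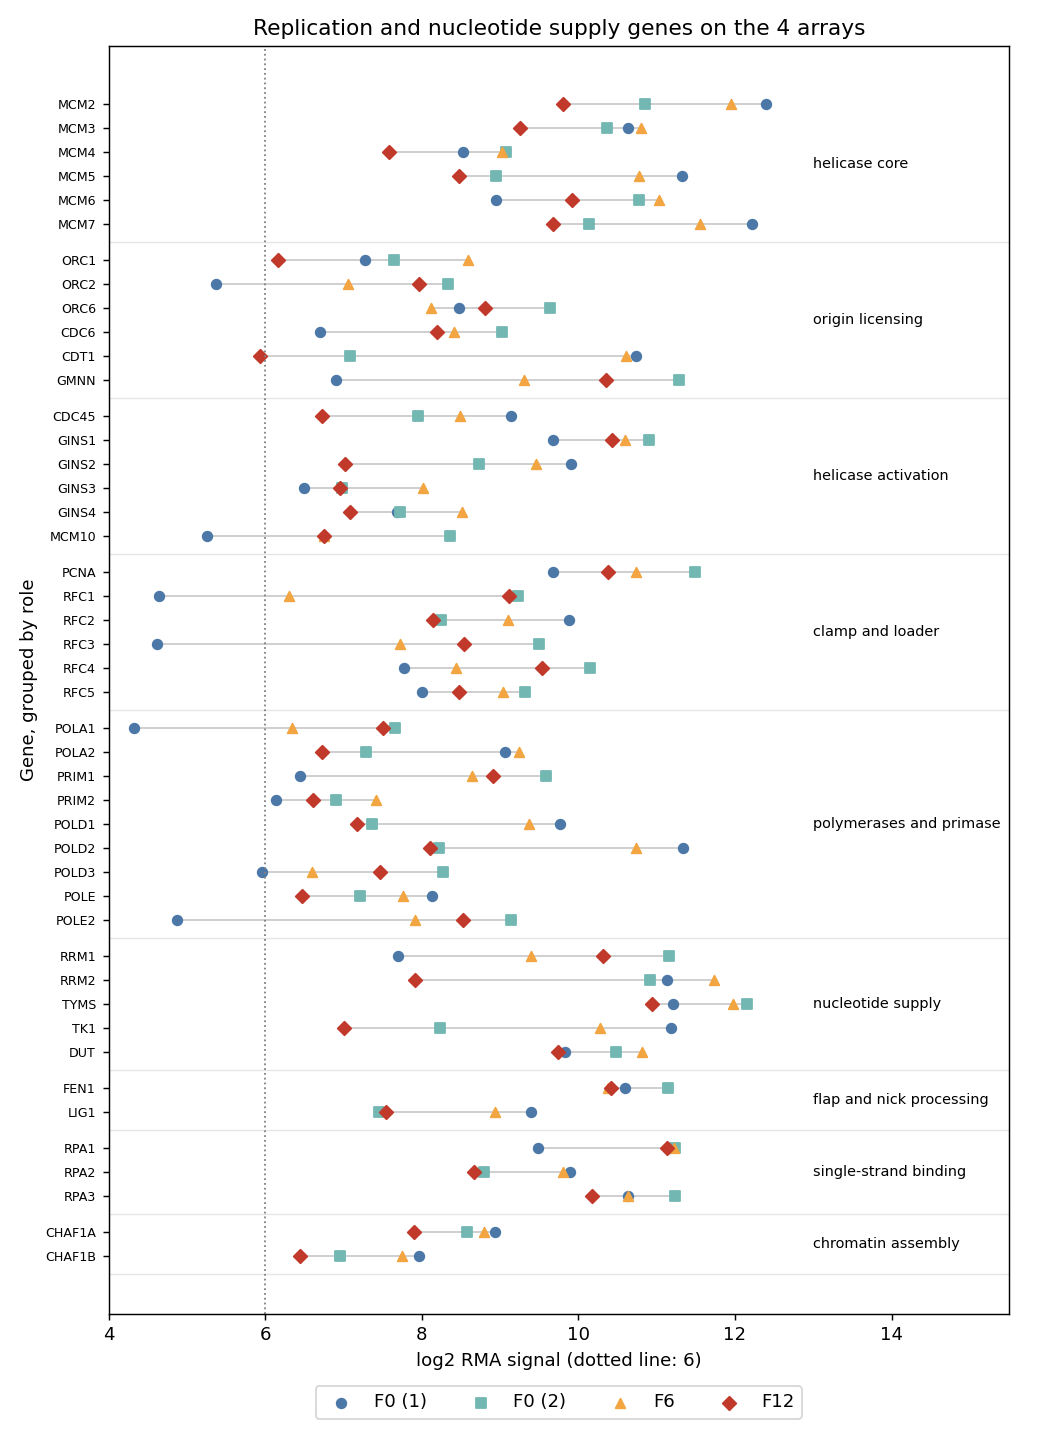
Log2 signal (horizontal axis) of each of the 45 genes (vertical axis, grouped by role) on F0 (1), F0 (2), F6 and F12, 1 point per array, with a grey line over the range and a dotted line at 6. F12 lies to the left of F0 (2) for 44 of 45 genes, while F0 (1) lies on either side; for MCM10 the F12 point covers the F6 point at 6.75.

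The comparison of F12 with the parental cells addresses the cells that had gone through 12 rounds. Nearly all of the replication and nucleotide supply genes read lower on F12 than on F0 (2), while against F0 (1) they were divided. On F12 8 of the 45 were at least 2-fold below both F0 arrays (RRM2, GINS2, CDC45, TK1, CDT1, MCM3, ORC1 and MCM2), against 1.37% of all genes and 2.16% of the 11928 genes that reached 6 on 1 array. None of the 45 was 2-fold above both, where 1.93% of all genes were. By any amount, 24 were below both F0 arrays and 0 above both, against 30.4% and 19.5% of all genes. The median difference of the 45 genes from the F0 mean was -0.62, and that of all genes was -0.24.

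The result depended on the parental array. Against F0 (2) alone, 13 of the 45 genes were at least 2-fold lower on F12 (3.78% of all genes) and 0 were 2-fold higher, with a median of -0.74. By any amount 44 of the 45 were lower than F0 (2), against 45.9% of all genes and 49.1% of those that reached 6 on 1 array. The single exception was LIG1, the ligase that seals Okazaki fragments, at 7.45 on F0 (2) and 7.54 on F12. Against F0 (1) alone, 19 genes were 2-fold lower and 13 were 2-fold higher, against 32.0% and 25.0% of all genes. Of the 11928 genes that reached 6 on 1 array, 4109 were 2-fold lower and 4667 were 2-fold higher. By any amount 25 of the 45 were lower than F0 (1) and 20 higher, where 12843 of the 19775 genes were lower. The median against F0 (1) was -0.27, above the -0.54 of all genes but below the -0.05 of genes that reached 6 on 1 array. By the median the 45 thus read lower than all genes against F0 (2) and not against F0 (1). Beside the genes that reached 6, whose median against F0 (2) was 0.01, they read lower against both F0 arrays. The comparison with F0 (2) by itself was singled out after the values were seen, because F12 is most like that array. The plot of differences between single arrays shows these distributions side by side.

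**Figure D2:**
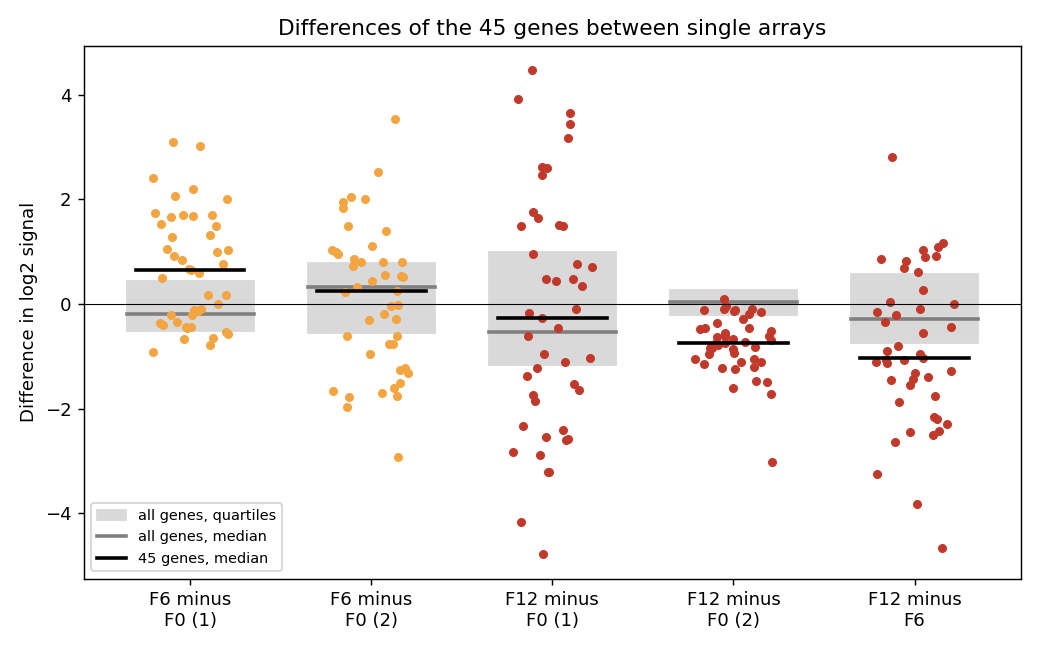
Differences in log2 signal (vertical axis) between pairs of arrays for the 45 genes (points) with their median (black line), over the quartiles (grey box) and median (grey line) of all genes. Against F0 (2) the F12 points lie between -3.02 and 0.09 with a median of -0.74, below a grey median of 0.03, while against F0 (1) they run from -4.79 to 4.47.

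The gene with the widest gap was RRM2, which encodes the small, S-phase-limited subunit of ribonucleotide reductase, the enzyme that turns ribonucleotides into deoxyribonucleotides. It read 11.13 on F0 (1), 10.92 on F0 (2), 11.73 on F6 and 7.91 on F12. Only F12 was low, with a difference of -3.02 from the nearer F0 array, and the parental arrays differed little (SD 0.14). Of all genes, 46 had a difference between F12 and F0 (2) at least this low. A second RRM2 probeset read 9.11, 11.96, 11.06 and 8.52 on the same arrays, so on it F12 differed by -3.44 from F0 (2) but by only -0.59 from F0 (1). In limma, RRM2 differed from the F0 mean by -3.12 (SE 1.74, n = 2 F0 arrays and 1 F12 array, adjusted p = 1), a SE that limma pooled over all genes.

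All 5 nucleotide supply genes, RRM2 included, were lower on F12 than on F0 (2). TK1, the thymidine kinase that salvages thymidine, read 11.18 on F0 (1), 8.23 on F0 (2), 10.27 on F6 and 7.01 on F12. A second TK1 probeset read 11.59, 7.33, 10.75 and 6.63. Both put F12 lowest and F0 (1) highest, and F6 between the F0 arrays. TYMS, which makes thymidylate and is the target of fluorouracil, read 11.21, 12.15, 11.97 and 10.94, so F12 was lowest but differed from F0 (1) by only -0.27. A second TYMS probeset read 9.98, 8.96, 10.73 and 8.01, where F12 differed by -1.97 from F0 (1) and by -0.95 from F0 (2). DUT, the dUTPase that keeps uracil out of DNA, read 9.83, 10.48, 10.81 and 9.74, with F12 lowest by only -0.09 from F0 (1). Its other probesets put F12 above F0 (1), by 0.81 and 0.35, and below F0 (2). RRM1, the large catalytic subunit of ribonucleotide reductase, was not below both F0 arrays on F12 as RRM2 was. It read 7.70, 11.16, 9.39 and 10.31, so that F12 lay between the F0 arrays, at a difference of -0.85 from F0 (2). A second RRM1 probeset read 6.49, 7.55, 7.95 and 6.71, with F12 again between the F0 arrays but F6 highest, as for RRM2 on its brighter probeset.

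Of the licensing factors, CDT1 and ORC1 were 2-fold below both F0 arrays on F12. CDT1, which brings the MCM ring to origins, read 10.73 on F0 (1), 7.08 on F0 (2), 10.61 on F6 and 5.94 on F12. The parental arrays were thus over 8-fold apart (SD 2.58), F6 was close to F0 (1), and F12 was under 6. Its _x_at probeset, 10.38, 9.02, 10.22 and 7.74, kept the same order except for the size of the steps. ORC1, the largest subunit of the origin recognition complex, read 7.28, 7.64, 8.59 and 6.17, highest on F6 and lowest on F12 around a close parental pair. CDC6, the loading ATPase, read 6.70, 9.02, 8.41 and 8.20, and GMNN, the inhibitor of CDT1, read 6.90, 11.28, 9.31 and 10.35. For both, F12 lay between the F0 arrays, and its differences from F0 (2) were -0.82 and -0.93. ORC2 and ORC6 also lay between the F0 arrays on F12, with differences of -0.36 and -0.82 from F0 (2).

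All 6 core helicase genes were lower on F12 than on F0 (2) and at least 2-fold lower than on F6. MCM2 read 12.39 on F0 (1), 10.85 on F0 (2), 11.95 on F6 and 9.80 on F12, and MCM3 read 10.63, 10.36, 10.80 and 9.25. These 2 passed the 2-fold line below both F0 arrays. MCM4 read 8.53, 9.07, 9.03 and 7.58 and missed that line narrowly, with a difference of -0.96 from the nearer array. Of its other probesets with a signal of 6 on 1 array, 3 put F12 over 2-fold below both F0 arrays, and the dimmest, with 6.25 as its highest signal, did not. MCM5 (11.32, 8.95, 10.78 and 8.48) and MCM7 (12.22, 10.14, 11.55 and 9.67) were far apart on the parental pair, and F12 lay just below F0 (2) for each. MCM6 was the one core subunit inside the parental range on F12, at 8.95, 10.78, 11.03 and 9.92.

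The factors that turn the loaded ring into a helicase were uneven. GINS2 read 9.91 on F0 (1), 8.73 on F0 (2), 9.46 on F6 and 7.02 on F12, and CDC45, the partner of the GINS complex, read 9.14, 7.95, 8.49 and 6.72. F12 was lowest for each, with differences of -1.71 and -1.24 from the nearer F0 array. A dimmer GINS2 probeset (7.08, 5.88, 6.61 and 5.93) did not show the gap. GINS1 read 9.67, 10.90, 10.59 and 10.43, inside the parental range. GINS4 was nearly equal on the parental pair (7.68 and 7.72) and read 8.52 on F6 and 7.08 on F12. GINS3 was the 1 gene of the 45 that was 2-fold above both F0 arrays on F6, at 6.50, 6.98, 8.02 and 6.95. MCM10, which helps the helicase start, read 5.26, 8.36, 6.75 and 6.75, so F12 differed by -1.61 from F0 (2) but was above F0 (1), where the signal was under 6.

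Promoter sequence was read for these 8 genes because several are known E2F targets. RefSeq promoters of build GRCh38.p14 were available here for 39 of the 45 genes. The 250 bases before each start were searched on both strands for an E2F motif (the letters TTT, then C or G, then C or G, then CGC) and for CCAAT, the letters bound by NF-Y. No E2F match overlapped a CCAAT match (0 in these genes). Of the 39 genes, 14 (35.9%) held the E2F letters in at least 1 promoter entry, against 3.4% of all 27305 genes of the promoter table and 4.54% of the 15384 measured on the arrays. The share was 3 of 8 among the genes at least 2-fold below both F0 arrays and 11 of 31 (35.5%) among the others, so the letters did not mark the genes with the wider gap. CCAAT was held by 24 of the 39 (61.5%), against 37% of all genes of the table and 39.7% of those measured. It was held by 6 of the 8 and by 18 of the 31 others (58.1%).

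The E2F matches of GINS2, CDT1 and MCM3 lay 31, 35 and 174 bases before the start, and in 1 of the RRM2 promoter entries CCAAT lay 123, 93 and 66 bases before it. Of all genes of the table, 3.55% held CCAAT at least 3 times, as did 6 of the 39 (15.4%). The RRM2 matches were picked after the values were seen, because RRM2 had the widest gap and because its 3 copies sit in near-identical stretches. Each line gives 30 bases, 5′ to 3′ on the gene's strand, with the matched letters in capitals, read on that strand or as their complement.
RRM2, chr2:10122604-10122633 (+): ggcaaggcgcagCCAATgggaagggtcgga
RRM2, chr2:10122634-10122663 (+): ggcatggcacagCCAATgggaagggccggg
RRM2, chr2:10122661-10122690 (+): ggggcaccaaagCCAATgggaagggccggg
GINS2, chr16:85688967-85688996 (-): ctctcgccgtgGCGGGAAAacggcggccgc
CDT1, chr16:88803743-88803772 (+): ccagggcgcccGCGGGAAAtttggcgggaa
MCM3, chr6:52284898-52284927 (-): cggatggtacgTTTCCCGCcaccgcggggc

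By any amount, 1 of 6 clamp and loader genes was below both F0 arrays on F12. So were 4 of 9 polymerase and primase genes. The shares were 30.4% of all genes and 25.9% of those that reached 6 on 1 array. PCNA, the sliding clamp, read 9.67 on F0 (1), 11.49 on F0 (2), 10.73 on F6 and 10.38 on F12. F12 was inside the parental range and differed by -1.10 from F0 (2). Of the clamp loader genes, which open the clamp on DNA, all 5 were lower on F12 than on F0 (2), with differences from -0.96 to -0.11, and RFC2 was the one below both F0 arrays. All 9 polymerase and primase genes were lower on F12 than on F0 (2) and 0 were 2-fold lower, with a median of -0.56. POLD2, a small subunit of polymerase delta, read 11.33, 8.22, 10.74 and 8.11. POLE2, a subunit of polymerase epsilon, read 4.88, 9.14, 7.91 and 8.53. These run in opposite directions over the parental pair, and on each F12 sat nearer to F0 (2) than to F0 (1).

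The genes of flap processing, single-strand binding and chromatin assembly differed among themselves on F12. FEN1, the nuclease that trims Okazaki flaps, read 10.59 on F0 (1), 11.14 on F0 (2), 10.38 on F6 and 10.42 on F12, and F12 was close to the lower F0 array. A second FEN1 probeset read 9.93, 9.48, 10.01 and 8.60, so on it F12 differed by -0.89 from the nearer F0 array. RPA1, the large subunit of the single-strand binding protein, read 9.49, 11.23, 11.22 and 11.13. On this probeset 3 of the arrays were alike and F0 (1) was low. On a second RPA1 probeset (8.57, 9.35, 10.17 and 8.97) F6 was highest and F12 lay between the F0 arrays. The differences of F12 from F0 (2) were -1.06 for RPA3 and -0.13 for RPA2, the smaller subunits. The chromatin assembly subunits, which place histones behind the fork, were lowest on F12. CHAF1A read 8.93, 8.58, 8.80 and 7.90, and CHAF1B read 7.96, 6.95, 7.75 and 6.44.

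The other probesets gave the same side for most genes. Of 33 further probesets with a signal of 6 on 1 array, from 24 of the genes, 30 were lower on F12 than on F0 (2) and 11 at least 2-fold lower. The 3 exceptions (1 each of GINS2, MCM4 and POLD3) read at most 0.05 higher on F12, with F12 under 6 in each. With the mean of a gene's probesets in place of the brightest one, 6 of the 8 genes stayed 2-fold below both F0 arrays, with RRM2 at -1.90 from the nearer array, while TK1 (-0.95) and GINS2 (-0.84) missed the line.

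**Figure D3:**
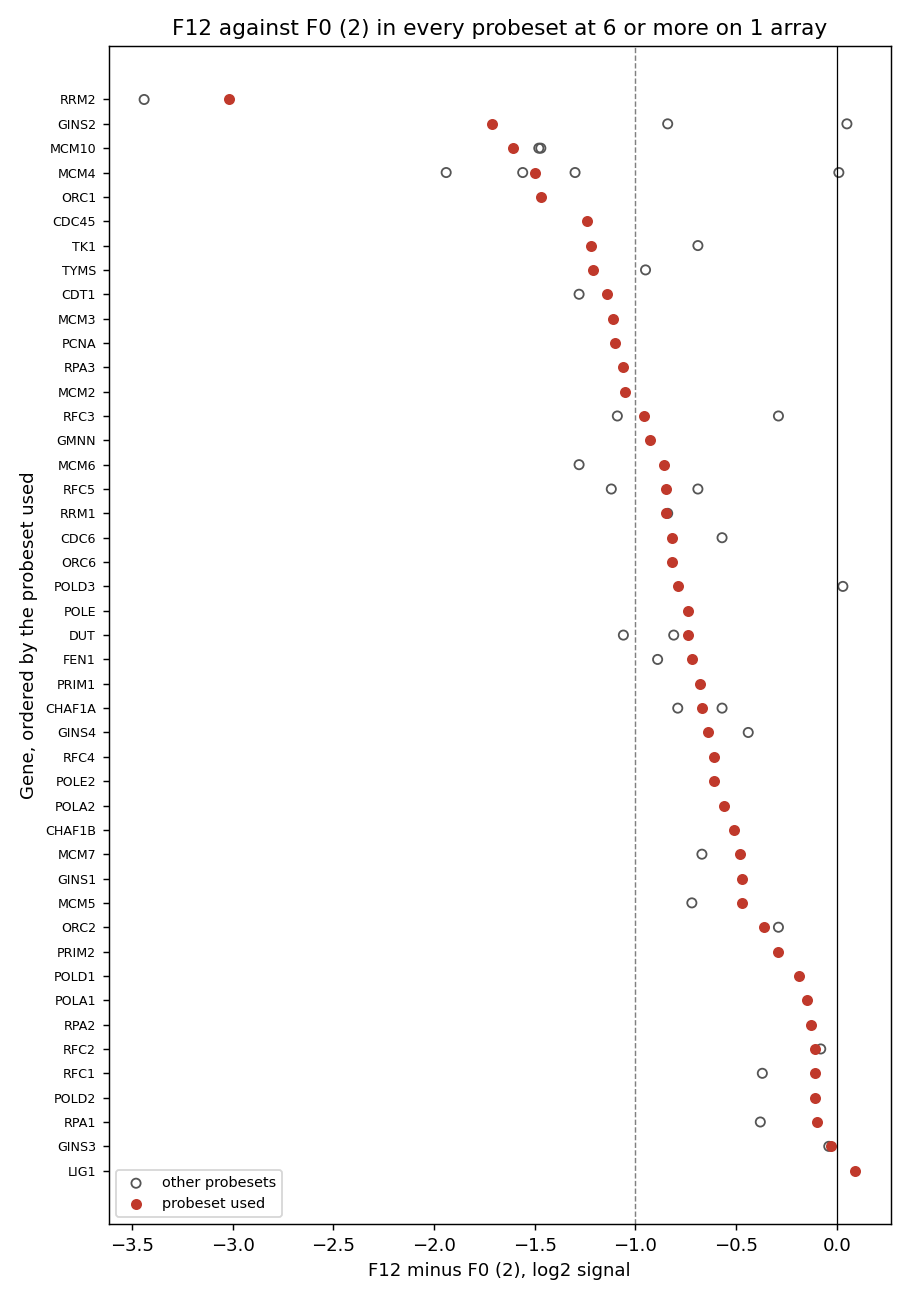
F12 minus F0 (2) in log2 signal (horizontal axis) for every probeset that reached 6 on 1 array, by gene (vertical axis); filled points are the probesets used, open points the others, and the dashed line is 2-fold lower. 44 of 45 filled and 30 of 33 open points lie left of 0, with both RRM2 probesets farthest left.

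In limma, 0 of the 45 genes passed an adjusted p of 0.05 for F12 against F0, and over all genes 0.0% did. No member reached an unadjusted p of 0.05 (0 of 45), RRM2 having the lowest at 0.0733. The 2 F0 arrays give the only residual degree of freedom, and F12 is assumed to vary as they do. The labels do not say whether these came from separate cultures or tumors.

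The comparison of F6 with the parental cells asks the same after 6 rounds. On F6 these genes read mostly within the parental range, 33 of 45 (73.3%) against 76.3% of all genes. GINS3 was 2-fold above both F0 arrays, 1 of 45 against 0.576% of all genes, and 0 were 2-fold below both, against 0.561%. A second GINS3 probeset read 5.85, 6.82, 7.26 and 6.78, so its gap on F6 was under 2-fold. By any amount 9 genes were above both F0 arrays (13.3% of all genes) and 3 below both (10.4% of all genes). Those above were RRM2, ORC1, GINS3, GINS4, MCM3, MCM6, POLA2, PRIM2 and DUT, and those below were ORC6, FEN1 and RPA3. Second probesets put RRM2 between the F0 arrays on F6 (11.06) and FEN1 above both (10.01).

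The median of F6 minus the F0 mean over the 45 genes was 0.34, and 0.06 over all genes. Against F0 (1) it was 0.64, with 17 genes 2-fold higher and 0 lower, where 17.1% and 4.13% of all genes were. Against F0 (2) it was 0.25, under the 0.33 of all genes but above the 0.14 of those that reached 6 on 1 array. Here 10 genes were 2-fold higher and 11 lower, where 15.8% and 20.3% of all genes were. In limma 0 of the 45 genes passed (0.0% of all genes), 0 reached an unadjusted p of 0.05, and CDT1 had the lowest at 0.327.

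F12 was also set against F6, the later against the earlier passage. At least 2-fold lower on F12 were 23 of the 45 genes, against 14.7% of all genes, and 4 were 2-fold higher (GMNN, RFC1, RFC4 and POLA1), against 20.2%. The lowest differences were those of CDT1 (-4.67), RRM2 (-3.82) and TK1 (-3.25). RFC1 had the highest, at 2.81. The median was -1.03, and -0.29 over all genes.

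These differences varied with the gap between the F0 arrays, but an F12 signal lower than on F6 was not limited to genes lower on F0 (2). Across all genes F6 lay at 0.411 and F12 at 0.963 from F0 (1) to F0 (2). By that fit any gene lower on F0 (2) would read lower on F12 than on F6. All genes split in the same way were not counted, so the following counts are not set apart from them. Of the 14 genes 2-fold lower on F0 (2) than on F0 (1), 13 were 2-fold lower on F12 than on F6, with a median of -2.17. Of the 18 genes 2-fold higher on F0 (2), 1 was, with a median of 0.65. Of the 13 genes less than 2-fold apart on the parental pair 9 were, with a median of -1.08. Against F0 (2), 13 of the 14, 18 of the 18 and 13 of the 13 were lower on F12, a direction that the choice by F0 (2) itself favours for the 18 and disfavours for the 14. When the value expected from the position of F6 and F12 between the F0 arrays was subtracted, 25 genes were 2-fold lower on F12 than on F6 and 0 were 2-fold higher, against 6.47% and 5.67% of all genes. The median of the 45 genes was then -1.19, and 0.02 over all genes. In limma 0 of the 45 genes passed (0.0% of all genes). 1 had an unadjusted p under 0.05, CDT1 (-4.67, SE 2.01, unadjusted p = 0.0201, adjusted p = 1).

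A total of 6 of the 45 genes were above both F0 arrays on F6 and below both on F12, against 4.08% of all genes. They were RRM2, ORC1, MCM3, GINS4, POLA2 and DUT, the last on 1 of its 3 probesets. The second RRM2 probeset put F6 (11.06) between the F0 arrays, and POLA2 and MCM3 exceeded F0 (1) on F6 by only 0.18 and 0.17. With F6 and F12 pooled against F0, 0 of the 45 genes passed in limma (0.0% of all genes) and 0 had an unadjusted p under 0.05.

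Genes around this machinery were counted from lists of other members of the pathway. Of all genes, 1.37% were 2-fold below both F0 arrays on F12 and 1.93% were 2-fold above both. Of 29 other replication genes, 2 were 2-fold below both F0 arrays on F12 and 0 above. They were UHRF1, which guides maintenance methylation at forks (10.22 on F0 (1), 9.61 on F0 (2), 10.23 on F6 and 8.16 on F12), and the histone chaperone ASF1B (9.44, 7.36, 9.16 and 6.36). By any amount 26 of the 29 were below F0 (2), against 45.9% of all genes, with a median of -0.54. The origin subunits ORC4 and ORC5 were 2 of the 3 not below F0 (2), and F12 was above both F0 arrays for each. Against F0 (1) the median was 1.52 and 19 of the 29 were higher, where 6914 of the 19775 genes were.

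Among 30 other nucleotide synthesis genes, 2 were 2-fold below both F0 arrays on F12 and 1 above, and 20 were below F0 (2) by any amount. The shares of all genes were 1.37%, 1.93% and 45.9%, in that order. The medians against F0 (1) and F0 (2) were -0.20 and -0.13. The kinase NME1 read 13.78 on F0 (1), 12.46 on F0 (2), 12.89 on F6 and 11.18 on F12, and CTP synthase CTPS1 read 10.07, 8.97, 9.33 and 7.74. SAMHD1, which breaks down deoxynucleotides, was the one above, at 4.26, 7.59, 5.56 and 8.79. It was under 6 on F0 (1) and F6. RRM2B, the p53-induced relative of RRM2, read 3.05, 8.06, 5.33 and 7.46, a difference of -0.60 between F12 and F0 (2).

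Of 25 genes of cell cycle entry and E2F control, 4 were 2-fold below both F0 arrays on F12 and 0 above. The shares of all genes were 1.37% and 1.93%. By any amount 19 were below F0 (2), with a median of -0.25, and 14 were above F0 (1), with a median of 1.15. Of all genes 45.9% were below F0 (2), and 6914 of 19775 were above F0 (1). The 4 were the cyclin-dependent kinase CDK2 (9.47 on F0 (1), 9.12 on F0 (2), 9.76 on F6 and 7.88 on F12), its activating phosphatase CDC25A (9.12, 8.84, 9.42 and 7.54), the transcription factor MYBL2 (11.37, 8.71, 10.28 and 7.69) and CDKN1A. CDKN1A encodes p21, which inhibits cyclin-dependent kinases. It read 9.63, 8.44, 7.71 and 6.84, below both F0 arrays on F6 and on F12. E2F1 read 9.45, 7.56, 8.64 and 7.14 and E2F8, a repressor of the family, 4.80, 8.39, 6.69 and 5.95. Cyclin D1 (CCND1) varied little, at 8.21, 8.96, 8.32 and 8.71, while cyclin E2 (CCNE2) read 3.09, 8.31, 4.03 and 6.24.

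Mitotic genes, which peak later in the cycle, read lower on F12 than on F0 (2) but mostly higher than on F0 (1). On F12 5 of 28 were 2-fold below both F0 arrays, 16 of 28 were 2-fold below F0 (2), and 28 of 28 were below F0 (2) by any amount, with a median of -1.17. The shares of all genes were 1.37%, 3.78% and 45.9%, in that order. Against F0 (1) the median was 2.51, and 18 of 28 were 2-fold higher. Of all genes 25.0% were, and of the 11928 that reached 6 on 1 array 4667 were. By any amount 9 of 28 were below both F0 arrays (32.1%), near the 30.4% of all genes. The 5 were the kinase AURKB (11.40 on F0 (1), 9.02 on F0 (2), 10.61 on F6 and 7.27 on F12), the survivin gene BIRC5 (11.15, 10.23, 10.74 and 8.56), cyclin B1 (CCNB1; 10.86, 10.58, 11.56 and 9.04), the kinesin KIF2C (10.08, 9.68, 10.49 and 8.35) and the transcription factor FOXM1 (9.52, 8.78, 9.65 and 7.60), which had only an _x_at probeset. AURKB is one of the aurora kinases that the injected inhibitor targets. The spindle factor TPX2 was the 1 mitotic gene 2-fold above both F0 arrays on F6, at 9.25, 9.95, 11.27 and 8.95. The proliferation marker MKI67 read 5.85, 8.20, 7.02 and 6.23. A low reading on F12 against F0 (2) was thus shared by mitotic genes, and whether it differed between the lists was not tested. The plot of list shares sets these counts beside all genes.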

How the data were processed

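Total RNA was amplified with a 3′ in vitro transcription kit and labelled with biotin, per the labels' protocols. The authors deposited 1 log2 signal per probeset and array, and the submitters' processing notes name RMA and the affy package (version not given in the sources used here). Precision is limited by the number of arrays. Of 54613 probesets, 41091 had 1 gene symbol in the platform annotation, 1801 several and 11721 none, and 19775 genes resulted.

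Tests used limma 3.58.1 (lmFit and eBayes, R 4.3.3) with F0, F6 and F12 as 3 groups, or F6 and F12 together against F0. P-values were adjusted by Benjamini-Hochberg across the 19775 genes, and 0.05 was the limit. F6 and F12 have 1 array each, so a call by fold asks for 2-fold beyond both F0 arrays. The fit was tested on simulated data, where at the spread of the F0 pair it missed most changes of the sizes described here, so a count of 0 says little. Position between the F0 arrays was fitted by least squares across genes.

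The members and lists were chosen with earlier results of these data known. Named with all values are members 2-fold beyond both F0 arrays on F6 or F12, the member of highest mean in each role and a fixed set of others. In the other lists, genes 2-fold beyond both F0 arrays and a few fixed ones are named. The RRM2 promoter matches and the other members given with all values were chosen after their values were seen. Alternatives were other probeset choices, a minimum signal, centring, quantile normalization, an intensity trend, other folds, position and each F0 array left out.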

Additional observations from a re-analysis of the deposited data

Results flagged for a closer look

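Of the 45 genes 6 were above both F0 arrays on F6 and below both on F12, so the 2 passages differed from the parental cells in opposite directions for them, against 4.08% of all genes. In the other lists 3 of 29 replication, 3 of 30 nucleotide synthesis, 2 of 25 cell cycle entry and 4 of 28 mitotic genes did the same. The 6 of the 45 genes are all named below, whatever their gap. From the other lists, those named are 2-fold beyond both F0 arrays on F6 or F12, a choice that favours this pattern. TICRR, POLE3, ATIC, PRPS1 and PRPS2 shared the pattern with smaller gaps. With 1 array each this was not tested beyond limma's comparison of F12 with F6, in which none of them passed. The difference of F12 minus F6 was -3.82 for RRM2, -2.51 for POLA2, -2.42 for ORC1, -1.55 for MCM3, -1.44 for GINS4 and -1.07 for DUT. Among the other lists it was -2.52 for CCNB1, -2.32 for TPX2, -2.14 for KIF2C, -2.06 for UHRF1, -2.05 for FOXM1, -1.88 for CDK2 and -1.87 for CDC25A. For UHRF1 the excess on F6 over F0 (1) was 0.01, and for DUT the difference of F12 from F0 (1) was -0.09, so these directions rest on very small differences. Neither other DUT probeset put F12 below F0 (1). The second RRM2 probeset put F6 (11.06) between the F0 arrays (9.11 and 11.96), so the opposite directions of RRM2 rest on its brighter probeset. The excess on F6 over F0 (1) was also small for POLA2 (0.18), MCM3 (0.17) and FOXM1 (0.13), and it was 0.29 for both CDK2 and CDC25A.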

How the results depend on the processing

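Of 116 group results under the alternatives, 96 kept their value and 20 moved. Kept means within 1.5 times or within the SD of the member median over the F0 arrays (0.38). A count cannot change sign, so only the medians could reverse, and 0 did. The labels left out all genes. With F0 (1) kept, the member median of F12 minus F0 was -0.27 against -0.54 of all genes. With F0 (2) kept it was -0.74 against 0.03. For F6 they were, in that order, 0.64 against -0.20 and 0.25 against 0.33. The members' side of all genes thus depended on the F0 array, yet each counted as kept. The minimum signal could move no member value, as every member reached 6 on 1 array. The count of members below F0 (2) by any amount was 44 under all 5 alternatives run. With the mean of probesets limma called 1 gene, higher on F12 than on F0 (adjusted p = 0.00237), and 0 members were 2-fold above both F0 arrays on F6. Leaving out 1 F0 array gave 10 to 17 members above and 0 to 11 below on F6, and 0 to 13 above and 13 to 19 below on F12. On F6 with F0 (2) kept, the 10 above stand against 15.8% of all genes and the 11 below against 20.3%. With F0 (1) kept, the 17 above stand against 17.1% and the 0 below against 4.13%. On F12 the 13 below stand against 3.78% of all genes (F0 (2) kept) and the 19 against 32.0% (F0 (1) kept). The 0 above stand against 2.99% and the 13 above against 25.0%. After subtracting the value expected from position, 6 members were above on F6 (3.89% of all genes) and 13 below on F12 (3.57%). With that step 0 were higher on F12 than on F6 (5.67%), and without it 4 were (20.2%). With quantile normalization in its place, 1 was higher on F12 than on F6 (18.7% of all genes). At 1.5-fold the counts were 4 above on F6 (1.92% of all genes), 10 higher on F12 than on F6 (24.8%) and 29 below F0 (2) (9.17%). At 4-fold they were 0 above on F6 (0.0556% of all genes), 1 below both F0 arrays on F12 (0.212%) and 1 below F0 (2) (0.753%). On F12 against F6 they were 1 higher (10.8%) and 10 lower (2.58%). The alternatives for F0 (2) alone were chosen after seeing the data. Centring moved the median of all genes for F12 minus F0 from -0.24 to -0.37 and that of the members from -0.62 to -0.75. The 3-group limma test has no residual degree of freedom without an F0 array, so it was not run there. No paired analysis was possible because F6 and F12 have 1 array each and carry no replicate number.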
